A study of Homo sapiens with 18 samples.

Results

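Histone H3 methylation was examined at the 5 kallikrein genes of the prostate locus on chromosome 19 (KLK1, KLK15, KLK3, KLK2 and KLK4), out of 19675 protein-coding RefSeq genes with a known start. The genes were chosen by name, and every peak from 3 kb upstream of each gene to its end, or in a stretch between these genes, was taken. The cells were V16D, a castration-resistant prostate cancer line derived from LNCaP cells. They carried either a control lentivector (V16D/CTL) or a lentivector overexpressing H19, a long non-coding RNA (V16D/H19), with 3 transductions per group. Each replicate was immunoprecipitated for H3K4me3 and for H3K27me3 and had its own input library, which gave 12 peak lists. Both groups were grown in RPMI1640 with fetal bovine serum and shared the castration-resistant background. By the study's methods, H19 was expressed from a lentiviral plasmid with a CMV promoter that also carries GFP and puromycin resistance.

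Kallikreins are secreted serine proteases encoded by a gene cluster. KLK3 encodes prostate-specific antigen, which liquefies semen and is measured in blood as a marker of prostate cancer, and KLK2 encodes human kallikrein 2, its closest relative. Both are classical targets of the androgen receptor, a hormone-activated transcription factor of luminal prostate cells. KLK4 encodes prostase, which also matures tooth enamel, KLK15 encodes prostinogen and KLK1 encodes tissue kallikrein, which releases kinins. H3K4me3 marks the starts of active genes, and H3K27me3 is laid down by the Polycomb repressive complex PRC2 at silenced genes. The comparison asked how these marks were distributed over the locus when H19 was overexpressed.

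In V16D/H19 cells, the H3K4me3 site at the KLK2 start was narrower than in V16D/CTL cells, 2052 ± 26.5 bases (SD, n = 3) against 2785 ± 185 bases (SD, n = 3). Width was added as a measure after the data had been seen. The groups separated downward in width at 6.24% of 15811 sites, and 0.126% were called lower, KLK2 among them (limma, adjusted p = 0.0224). The KLK2 call was lost on leaving out any of 4 of the 6 libraries (limma, adjusted p = 0.0536 to 0.0820). No member passed the test on the height of its H3K4me3 peak, which called 0 of 15811 sites. With n = 3 per group, the lack of a call does not show that the heights were equal. The authors' list of differential sites, made from read counts, holds KLK2, KLK4 and KLK15, each with the lower mean in V16D/H19. Over the genome, 7.15% of 20708 H3K4me3 regions overlapped a listed site with the lower mean in V16D/H19. No H3K27me3 peak lay at the locus in any list. KLK1 had no peak of either mark.

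The labelled cell type was checked against H3K4me3 peaks within 1 kb of the starts of marker genes. All 5 luminal markers (KRT8, KRT18, HOXB13, FOXA1 and EPCAM) had such a peak in all 6 libraries. None of the 3 basal, 2 fibroblast and 1 leukocyte markers had it in any library (KRT5, KRT14, TP63, COL1A2, DCN and PTPRC). Of the neuroendocrine markers, SYP had it in all 6 libraries, INSM1 in 1 V16D/H19 library and CHGA in none. The H3K4me3 lists held 20048 to 21934 peaks and the H3K27me3 lists 55060 to 72289. The read depth behind the lists was not used here, so no peak in a list does not show that the mark was absent.

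The locus spanned 95.25 kb of chromosome 19, from 50819146 to 50914395 (GRCh38), and held 11 regions of H3K4me3 peaks. Of these, 4 had a peak in all 6 libraries, 2 had one in 5 libraries and 5 had one in a single library. The libraries held 9, 9 and 8 H3K4me3 peaks at the locus in V16D/CTL against 8, 11 and 4 in V16D/H19. The 4 shared regions lay at KLK15, KLK3, KLK2 and KLK4. Both regions found in 5 libraries were missing from V16D/H19 replicate 3, the library with the fewest peaks at the locus.

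**Figure D1:**
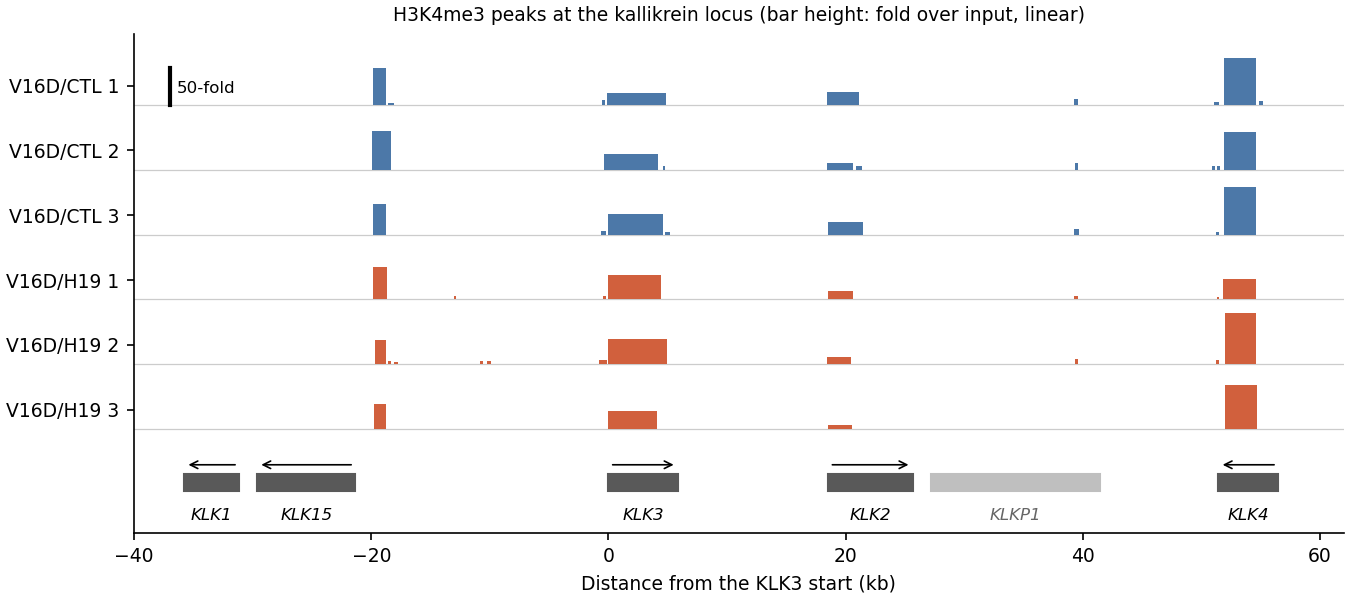
H3K4me3 peaks of the 6 libraries along the kallikrein locus, by distance from the KLK3 start in kb. Bar height is the deposited fold over input of each peak on a linear scale, dark grey bars below are the 5 genes with arrows in the direction of transcription, and the light grey bar is the pseudogene KLKP1. The 4 regions at KLK15, KLK3, KLK2 and KLK4 appear in every library, and KLK1 has no bar above it.

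The promoters of KLK2 and KLK3 are shown because the H3K4me3 domains of these genes begin close to their starts. The 250 bases before each start are given from RefSeq (GRCh38.p14), on the strand of the gene, which is the plus strand for both. Of the 5 genes, 4 matched the promoter table, all but KLK1. Capitals mark the stretch nearest to the palindromic androgen response element, which is made of the half-site agaaca, 3 bases of any kind, and the reverse complement tgttct.

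KLK3, chr19:50854665-50854914: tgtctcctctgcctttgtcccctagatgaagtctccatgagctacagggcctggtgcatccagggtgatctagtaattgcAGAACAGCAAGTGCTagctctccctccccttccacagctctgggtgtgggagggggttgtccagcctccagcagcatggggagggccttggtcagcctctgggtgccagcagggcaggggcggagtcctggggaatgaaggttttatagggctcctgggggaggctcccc

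KLK2, chr19:50873189-50873438: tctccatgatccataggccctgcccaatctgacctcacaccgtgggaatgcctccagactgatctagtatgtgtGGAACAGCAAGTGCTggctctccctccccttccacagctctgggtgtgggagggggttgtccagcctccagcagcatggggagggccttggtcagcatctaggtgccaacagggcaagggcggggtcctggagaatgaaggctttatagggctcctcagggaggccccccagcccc

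The marked stretch lay at positions −170 to −156 from the KLK3 start with 2 mismatches in the 12 fixed bases, and at −176 to −162 from the KLK2 start with 3 mismatches. A stretch with up to 3 mismatches was held by 9.17% of the 35116 promoters of the table on the same 250 bases, and the exact palindrome by 1 promoter. The exact half-site, searched on both strands, was in the KLK3 window and not in that of KLK2, and 12.4% of all promoters held it. The half-site is part of the palindrome, so these counts overlap. Neither window held the exact TATA box tataaa on its own strand, which 6.80% of promoters held and which was found before the outer start of KLK15. Variants of the TATA box were not searched, so this does not show that either promoter lacks one.

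The KLK2 and KLK3 promoters were near copies of each other. Over 238 aligned bases, 205 were identical (86.1%). The longest run shared base for base was 80 bases, from −160 to −81 relative to the KLK2 start, and the reads were 75 bases long and single-ended. Reads from within that run cannot be placed in one of the 2 genes by sequence alone, and the effect of this on the peaks was not tested. Peaks covered 53 to 118 of the 250 bases before the KLK2 start in V16D/CTL against 18 to 112 in V16D/H19. Before the KLK3 start they covered 69 to 250 bases in V16D/CTL against 36 to 130 in V16D/H19, so the ranges of the groups overlapped at both promoters.

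KLK3 (50854915 to 50860764, plus strand) carried the widest H3K4me3 domain of the locus. It ran from 50854124 to 50860065 over all libraries and filled 82.8%, 74.6% and 86.4% of the gene in V16D/CTL against 75.2%, 84.2% and 69.4% in V16D/H19. The main KLK3 peak was wider than 98.6% to 99.4% of the peaks of its own list. Its fold over input at the summit was exceeded by many peaks, since 38.9% to 58.0% of each list lay below it. In 4 libraries a short separate peak lay just before the KLK3 start, which V16D/CTL replicate 2 and V16D/H19 replicate 3 did not have.

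The fold over input of the strongest KLK3 peak was 15.6, 22.0 and 27.7 in V16D/CTL against 32.9, 34.8 and 24.6 in V16D/H19. The 2 highest values were in V16D/H19 and the third V16D/H19 value lay among those of V16D/CTL, so the groups overlapped. The log2 fold was higher by 0.47 in V16D/H19 (SE 0.33, 95% interval −0.20 to 1.15), which did not pass the test (limma, adjusted p = 0.83 over 15811 sites). The −log10 p of the same peak, a measure of how far it stood out that also grows with depth, was 57.4, 72.2 and 73.0 in V16D/CTL against 96.9, 101.2 and 73.9 in V16D/H19. All V16D/H19 values were above all V16D/CTL values, though 1 of them by a small margin. Such a separation upward was found at 7.42% of all sites, and limma did not call the difference (adjusted p = 0.64). The KLK3 domain covered 5172 ± 378 bases (SD, n = 3) in V16D/CTL against 4802 ± 754 bases (SD, n = 3) in V16D/H19, with overlapping groups and an adjusted p of 0.69 from limma.

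KLK2 (50873439 to 50880567, plus strand) carried a domain that began at the start of the gene and ran into its body, from 50873321 to 50876383 over all libraries. The peaks covered 2693, 2664 and 2998 bases in V16D/CTL against 2078, 2025 and 2054 bases in V16D/H19. All 3 V16D/H19 libraries were narrower than all 3 V16D/CTL libraries, and they differed among themselves by far less than from V16D/CTL. A separation downward in width was found at 6.24% of the 15811 sites. The log2 width fell by 0.44 (SE 0.06, 95% interval −0.58 to −0.30), a ratio of 0.735, and passed the threshold of 0.05 (limma, adjusted p = 0.0224 over all sites). At 0.126% of sites (20) the width was called lower, and 30 sites were called higher. Width was added as a measure after the data had been seen. The call was lost without V16D/CTL replicate 2 (adjusted p = 0.0536), V16D/CTL replicate 3 (0.0579), V16D/H19 replicate 1 (0.0786) or V16D/H19 replicate 2 (0.0820), while the log2 difference stayed between −0.48 and −0.38.

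The narrowing of the KLK2 domain lay on its downstream side. The downstream edge was 2574 to 2944 bases from the KLK2 start in V16D/CTL against 1912 to 2059 bases in V16D/H19, a mean shift of −786 bases with no overlap between groups (exact permutation test, two-sided p = 0.1, the smallest that 3 against 3 libraries can give). Relative to the start, the upstream edge lay at −118 to −53 in V16D/CTL against −112 to −18 in V16D/H19, and the groups overlapped. A separated downstream edge was not particular to KLK2, though the margin at KLK15 was far smaller. The downstream edge of KLK15 lay at −1495 to −1418 from its outer start in V16D/CTL against −1656 to −1498 in V16D/H19 (exact permutation test, p = 0.1). The nearest edges of the groups were thus at −1495 and −1498 at KLK15, against 2574 and 2059 at KLK2. How often edges separate the groups over all sites was not computed. The share of the KLK2 gene under H3K4me3 peaks was 37.8% ± 3.03 (SD, n = 3) in V16D/CTL against 28.0% ± 1.05 (SD, n = 3) in V16D/H19. In V16D/CTL replicate 2 the downstream end was a separate short peak with a fold over input of 5.52, and in the other libraries the domain was a single peak.

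**Figure D2:**
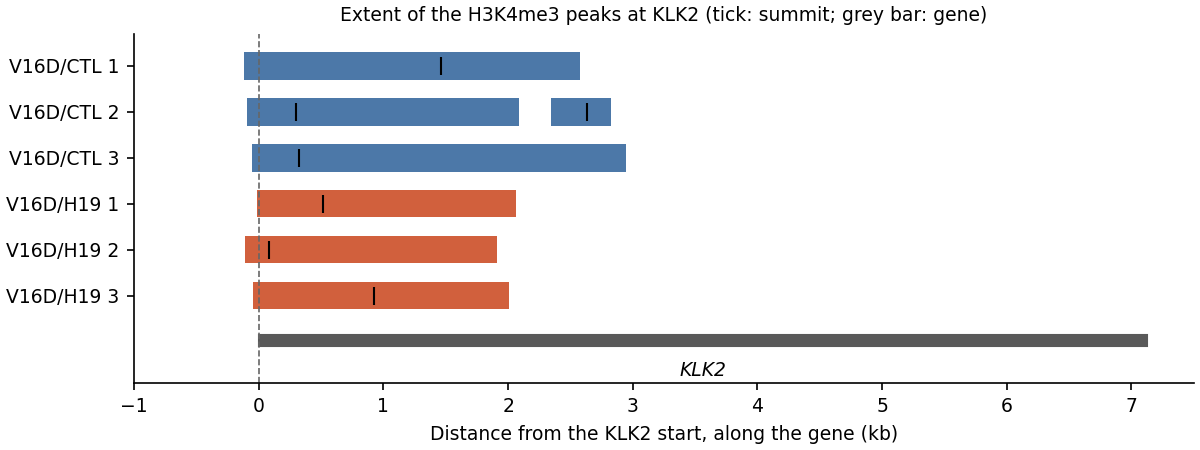
Extent of the H3K4me3 peaks at KLK2 in each library, in kb from the KLK2 start along the gene. Coloured bars are peaks, black ticks their summits and the grey bar the gene. The left ends are alike in both groups, and the right ends lie at 2574 to 2944 bases in V16D/CTL and at 1912 to 2059 bases in V16D/H19.

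The height of the KLK2 peak was lower on average in V16D/H19 without a call. The fold over input was 17.3, 9.28 and 17.1 in V16D/CTL against 11.9, 9.49 and 5.62 in V16D/H19. V16D/CTL replicate 2 lay below 2 V16D/H19 libraries, so the groups overlapped. The log2 difference was −0.75 (SE 0.36, 95% interval −1.49 to −0.02), with an adjusted p of 0.73 (limma). The test called 0 of 15811 sites lower (0%) or higher, with 1049 sites at an unadjusted p under 0.05. In the −log10 p of the peak, 45.3, 26.8 and 40.5 in V16D/CTL stood against 24.7, 18.5 and 10.9 in V16D/H19. The groups did not overlap, as at 5.32% of all sites downward, and the log2 difference of −1.13 was not called (limma, adjusted p = 0.22). The width and the −log10 p of the KLK2 peak were thus both lower in the V16D/H19 libraries, and the part of peak strength in the width was not tested.

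KLK4 (50906351 to 50911395, minus strand) had its main H3K4me3 domain inside the gene, from 50906773 to 50909572. Its strongest summit lay 1851 to 1965 bases downstream of the nearest RefSeq start of the gene in every library, and no peak reached the 250 bases before either start. The deposited annotation places the start of a shorter KLK4 transcript at 50909136, inside this domain. The fold over input was 63.4, 51.5 and 64.3 in V16D/CTL against 27.01, 69.9 and 59.5 in V16D/H19. V16D/H19 replicate 1 stood below all other libraries, and the other two V16D/H19 values were within or above the range of V16D/CTL. The log2 difference of −0.35 (SE 0.31) was not called (limma, adjusted p = 0.87) and turned to 0.05 without V16D/H19 replicate 1. The KLK4 width was 2717 ± 51.6 bases (SD, n = 3) in V16D/CTL against 2676 ± 67.9 bases (SD, n = 3) in V16D/H19, a difference within the spread of either group. A weaker region at the downstream end of KLK4, from 50905822 to 50906454, had peaks in 5 libraries with folds of 3.39 to 5.60.

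KLK15 (50825289 to 50833574, minus strand) had its H3K4me3 domain upstream of the gene, from 50834992 to 50836797. The strongest summit lay at −2317 to −2303 from the outer RefSeq start in all 6 libraries, a spread of a few bases. The deposited annotation gives a longer KLK15 transcript that starts at 50837213, upstream of this domain. The fold over input was 50.1, 52.5 and 42.0 in V16D/CTL against 44.2, 32.4 and 34.4 in V16D/H19. Of the V16D/H19 libraries, replicate 1 lay above the lowest V16D/CTL value, so the groups overlapped. The log2 difference was −0.44 (SE 0.30, 95% interval −1.05 to 0.17), which was not called (limma, adjusted p = 0.82). The −log10 p was 159.7, 180.9 and 152.4 in V16D/CTL against 129.6, 109.3 and 119.0 in V16D/H19, without overlap, as at 5.32% of all sites downward, and without a call (limma, adjusted p = 0.34). The KLK15 width was 1558, 1627 and 1123 bases in V16D/CTL against 1158, 1130 and 1049 bases in V16D/H19, where V16D/CTL replicate 3 lay within the range of V16D/H19.

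KLK1 (50819146 to 50823787, minus strand), next to KLK15 at the centromeric end of the cluster, had no H3K4me3 or H3K27me3 peak in its window in any of the 12 lists. A weak H3K4me3 region lay between KLK2 and KLK4, in the pseudogene KLKP1, from 50894140 to 50894577. Its fold was 8.33, 9.35 and 8.23 in V16D/CTL against 4.35 and 6.51 in V16D/H19 replicates 1 and 2, and V16D/H19 replicate 3 had no peak there. The 2 V16D/H19 values lay below all V16D/CTL values, and in a fit that needs only 2 libraries of each group the log2 difference was −0.76 (SE 0.35), which was not called (limma, adjusted p = 0.74). The stretch between KLK15 and KLK3 held 4 further short peaks, each in a single V16D/H19 library and with folds of 3.72 to 4.82.

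**Figure D3:**
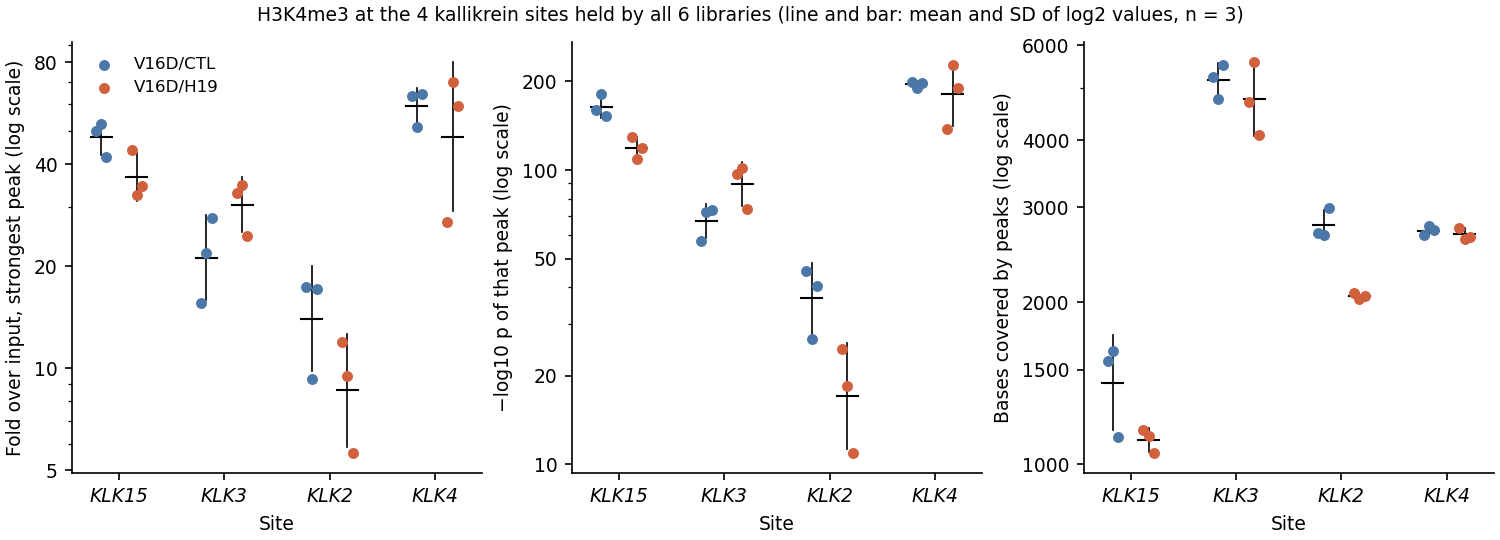
Fold over input, −log10 p and bases covered at the 4 kallikrein sites with an H3K4me3 peak in all 6 libraries, all on log axes. Points are libraries, and the lines and bars are the mean and SD of the log2 values (n = 3 per group). The groups do not overlap in −log10 p at KLK15 and KLK2 (downward, as at 5.32% of all sites) and at KLK3 (upward, 7.42%), nor in bases covered at KLK2 (downward, 6.24%), where V16D/H19 lies between 2025 and 2078 bases.

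The summits of the 4 sites were ranked within each library. KLK4 and KLK15 ranked first and second in all 3 V16D/CTL libraries and in V16D/H19 replicate 3, and KLK3 ranked second in V16D/H19 replicates 1 and 2. Fold over input is a local ratio at the summit and does not grow with the length of the gene. KLK2 ranked last in 5 of 6 libraries, and in V16D/CTL replicate 1 KLK3 ranked last. KLK4 and KLK15 could not be ordered, since the log2 ratio of KLK4 to KLK15 was 0.31 ± 0.32 (SD, n = 3) in V16D/CTL against 0.40 ± 0.97 (SD, n = 3) in V16D/H19. The log2 ratio of KLK3 to KLK2 was −0.15, 1.24 and 0.70 in V16D/CTL against 1.46, 1.88 and 2.13 in V16D/H19. The KLK3 summit exceeded that of KLK2 in all V16D/H19 libraries and in 2 of 3 V16D/CTL libraries, and the mean ratio was higher by 1.23 on the log2 scale in V16D/H19. This ratio does not depend on the scale of a library. The groups did not overlap, with an exact permutation p of 0.1 (two-sided), the smallest possible for 3 against 3 libraries. The ratios were compared after the data were seen, over 6 pairs, and the ratio of KLK15 to KLK3 also separated the groups (1.18 ± 0.55 in V16D/CTL against 0.27 ± 0.32 in V16D/H19, SD, n = 3). Both ratios separated in fold hold KLK3, so they are not independent. The same pairs were also compared in −log10 p and in width, where further ratios separated the groups. Among these were KLK4 to KLK3 in −log10 p and KLK4 to KLK2 in width. The share of other site pairs whose ratio separates the groups was not computed. No p-value could pass a threshold of 0.05 after adjustment over the 6 pairs.

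The bases under H3K4me3 peaks over the whole locus were 13321, 12619 and 12989 in V16D/CTL against 11442, 12773 and 9847 in V16D/H19. V16D/H19 replicate 2 lay within the range of V16D/CTL, and the mean difference of −1622 bases had an exact permutation p of 0.2 (two-sided). Without V16D/H19 replicate 3 the difference was −869 bases, and on leaving out any other library −1450 to −2332. By gene window, the mean difference was −733 bases at KLK2 (p = 0.1), −370 at KLK3 (p = 0.6), −241 at KLK15 (p = 0.2) and −199 at KLK4 (p = 0.2), all by the same exact test. The KLK3 difference ranged from −16.7 bases without V16D/H19 replicate 3 to −767 without V16D/H19 replicate 2. The KLK2 window was the only one in which the groups did not overlap. Its bases are those of the KLK2 site width, for which a downward separation was found at 6.24% of the 15811 sites.

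**Figure D4:**
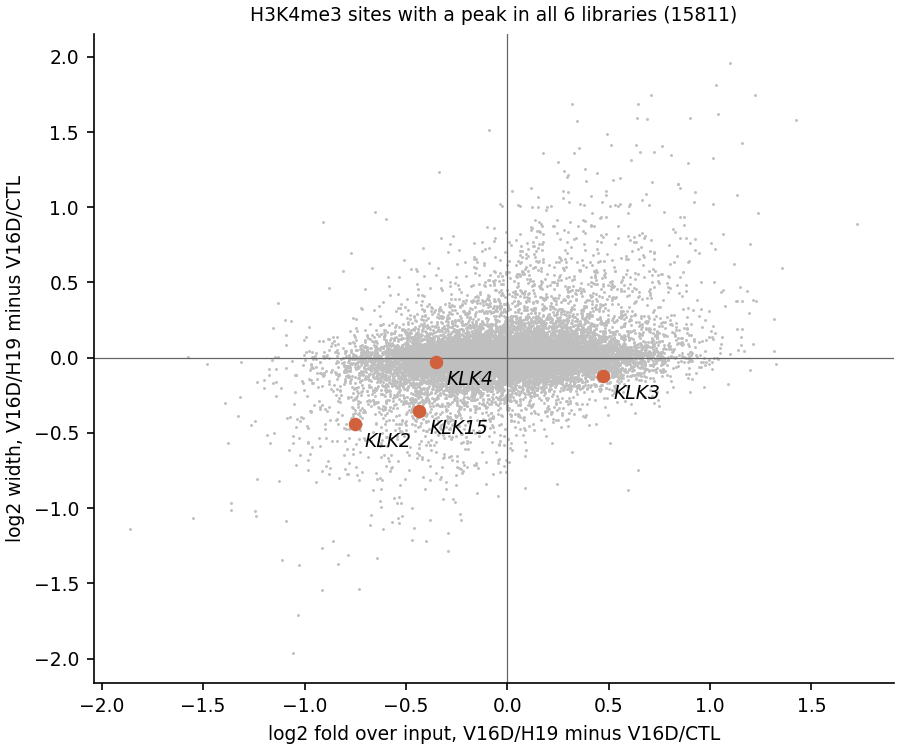
Difference in log2 fold over input (horizontal) and in log2 width (vertical) between V16D/H19 and V16D/CTL for the 15811 H3K4me3 sites with a peak in all 6 libraries. Grey points are sites, and the 4 kallikrein sites are coloured and named. KLK2 lies at −0.75 and −0.44, with 1.92% of sites lower in fold and 1.95% lower in width, and KLK3 at 0.47 and −0.12 on the opposite side in fold.

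The deposited table of differential H3K4me3 sites, made by the authors from read counts, lists 3 sites at these genes, at KLK2, KLK4 and KLK15, and none at KLK3 or KLK1. The concentrations below are the authors' mean log2 normalized read counts of each group. At KLK2 (50873321 to 50876383) the authors' mean was 8.05 in V16D/CTL against 6.73 in V16D/H19. At KLK15 (50834894 to 50837785) it was 8.19 and 7.77, and at KLK4 (50906773 to 50910189) 9.71 and 9.42. All 3 had the lower mean in V16D/H19. The whole list held 1857 sites, and 1480 H3K4me3 regions of the genome overlapped a listed site with the lower mean in V16D/H19. The direction of the 3 sites was thus not particular to these genes. Of the 6 H3K4me3 regions at the locus found in at least 2 libraries, 3 overlapped such a listed site, and over the genome 7.15% of 20708 such regions did. The deposited table of H3K27me3 sites lists none at these genes.

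H3K27me3 was not called anywhere in the 95.25 kb of the locus in any of the 6 lists. The nearest H3K27me3 peak lay 37.3 to 39.3 kb away on the KLK1 side and 16.1 to 63.6 kb away on the KLK4 side. A window without a called H3K27me3 peak was common, since 71.9% of the 19675 protein-coding genes had no H3K27me3 peak in any list. The rest of the kallikrein family, KLK5 to KLK14, lies beyond KLK4 and was counted in the same way. All 10 had an H3K27me3 peak in at least 1 list, and KLK9, KLK10 and KLK13 had one in all 6 libraries. By contrast, KLK5, KLK6 and KLK12 had one in only 1 list, and KLK7 and KLK11 only in V16D/CTL lists. Most H3K27me3 peaks were weak, since with stricter lists 31 sites had a peak in all 6 libraries, against 10934 in the main lists. None of the 10 had an H3K4me3 peak within 1 kb of its start in any library (64.0% of all protein-coding genes had one in all 6), while KLK2 and KLK3 had one in all 6 libraries, KLK4 in 1 and KLK15 and KLK1 in none. The low counts at KLK4 and KLK15 depend on the RefSeq starts. The deposited annotation, with starts at 50909136 and 50837213, places the listed KLK4 and KLK15 sites at promoters. These counts are given without a test.

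The 32 other protein-coding genes within 500 kb of the locus were mixed. An H3K4me3 promoter peak was found in all 6 libraries at 14 of them (43.8%, against 64.0% of all protein-coding genes), and 13 (40.6%) had no H3K27me3 peak in any list. Their 12 tested promoter sites had a median log2 difference in fold of 0.06 and in width of 0.03 between V16D/H19 and V16D/CTL, and none was called in either measure. The medians over the 11091 promoter sites of protein-coding genes were −0.00254 in fold and 0.00107 in width.

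The androgen receptor targets outside the locus were 15 genes. They were FKBP5, a co-chaperone of steroid receptors, TMPRSS2, a membrane serine protease, ACP3, prostatic acid phosphatase, and ABCC4, SLC45A3, STEAP2, PMEPA1, CAMKK2, ELL2, CENPN, ACSL3, HERC3, C1orf116, EAF2 and TRPM8. As at KLK2 and KLK3, the promoter had an H3K4me3 peak in all 6 libraries at 15 of 15, against 64.0% of all protein-coding genes, and no H3K27me3 peak lay in any window. At the 14 genes with a tested site, the median log2 difference was −0.00422 in fold and −0.04 in width. No site was called in fold or width. Of the 14, 3 were narrower and 2 wider in V16D/H19 without overlap between groups, and over all sites 6.24% were narrower and 7.86% wider in that way. In fold, 1 was higher and 0 were lower without overlap, against 6.84% and 4.63% of all sites. The difference in log2 width was largest at ACP3, 1.01 (limma, adjusted p = 0.17), and was 0.27 at TMPRSS2 (limma, adjusted p = 0.31) and at the acyl-CoA synthetase gene ACSL3 −0.30 (limma, adjusted p = 0.0659).

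The promoters whose H3K4me3 pattern over the 6 libraries was most like that of KLK2 were those of HSPD1 and HSPE1 (1 shared site), GDF11, RAB35, SERINC3 and KIF21A. Their Euclidean distances to KLK2, over the centred log2 folds less the mean of each site, were 0.36, 0.43, 0.45, 0.53 and 0.55. The promoters nearest to KLK3 were those of PSMC1, C2orf15 and TSGA10 (1 shared site), SCD5, NUMBL and ANP32B, at distances of 0.20 to 0.26. These are the closest of 11090 promoter sites over 6 libraries, given as a description. None of the 15 androgen receptor targets was among the 5 nearest to either gene, but only 14 had a tested site. With so few among 11090 sites, their absence says nothing about the targets.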

How the data were processed

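The authors called peaks in each replicate with MACS2 at default settings against the input of that replicate, narrow for H3K4me3 and broad for H3K27me3. The genome build is hg38 per the labels (submitters' processing notes), and the aligner is not given in the sources used here. The deposited peak lists give a fold over input (a ratio), a −log10 p and a −log10 q. The 2 deposited tables of differential sites (DiffBind, ChIPseeker) give the authors' mean concentration per group on a log2 scale. Their fold changes, p-values and FDR were not used, and the input libraries entered only through peak calling.

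Overlapping peaks (1 base or more) from the 6 libraries immunoprecipitated for the same mark were joined into sites. Sites with a peak in all 6 libraries were tested with limma 3.58.1 (R 4.3.3, eBayes with trend, two-sided) on the log2 fold of the strongest peak, centred on the median of each library, with Benjamini-Hochberg adjustment over all sites of the mark and a threshold of 0.05. Width, the bases a library's peaks cover at a site, and the −log10 p were fitted in the same way and were added after the data were seen. Covered bases per window were compared with the exact permutation test over 20 assignments. The code was tested on simulated data. A peak list holds no counts, so no counting interval was computed.

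Gene positions are RefSeq (GRCh38.p14), with strand from its promoter table or by symbol from GENCODE, whose coordinates were not used. PECAM1, the endothelial marker, could not be placed, and 1 other marker is not reported here. Replicates were separate transductions. Members, lists and the rule for genes with the most similar pattern were chosen with earlier results of these data known. Alternatives covered centring, quantile normalization, stricter or equal-length lists, peak weighting, missing libraries, window size, a replicate block and leaving out each library.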

Additional observations from a re-analysis of the deposited data

How the results depend on the processing

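Read depth was not used, groups held 3 libraries, and exact permutation tests could not go below p = 0.1, so these limit what could be called. Under the alternatives, no fold difference at KLK15, KLK3, KLK2 or KLK4 was called. The KLK2 fold difference ranged from −1.05 to −0.47 on leaving out 1 library and from −1.13 to −0.70 otherwise, and that of KLK3 from 0.22 to 0.70 and from 0.39 to 0.52. The KLK4 fold difference ranged from −0.58 to 0.0530, with the change of sign without V16D/H19 replicate 1, and the KLK4 width difference from −0.0526 to 0.00224, with the change of sign without V16D/H19 replicate 2. The KLK2 width difference ranged from −0.48 to −0.38 on leaving out 1 library, with an adjusted p of 0.0187 to 0.0820 over its 12 alternatives (limma). The log2 KLK3 to KLK2 ratio differed between groups by 0.85 to 1.55 on leaving out 1 library.

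Over all H3K4me3 sites, 0 were called in fold, 1 with the mean weighted by peak width and 19 with −log10 p in place of the fold (limma). For H3K27me3, limma called 0 of 10934 sites (814 at an unadjusted p under 0.05), 3 when not centred, 4 with at least 2 libraries per group, 2 with the replicate block, 4 with −log10 p, and 0 to 2 on leaving out 1 library. Sites called wider numbered 30, and 9 to 25 on leaving out 1 library. Sites called narrower numbered 20, 13 when not centred, 13 with the replicate block and 4 to 26 on leaving out 1 library. With windows from 1 kb upstream, the KLK15 window held 0 bases in every library, since its domain lies farther out. The causes were not tested.

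Libraries of the same replicate number did not deviate together (correlations of −0.00937 to 0.0260 over both marks), so the numbers were not taken as pairs. With the replicate block, the KLK2 width kept its call (limma, adjusted p = 0.0379) and no kallikrein fold difference was called. The block cannot change the estimated difference itself.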
